A study of Mus musculus with 6 samples.

Results

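This account concerns 46 mouse genes of DNA repair and of the DNA damage and replication checkpoint, compared between Spot14 GFP positive and Spot14 GFP negative neural stem cells. They were taken as a list of symbols and grouped by pathway into homologous recombination (17 genes), the Fanconi pathway (8), checkpoint signalling (8), mismatch repair (2), base excision (6) and end joining (5). Of the 46 genes 44 had a probe set naming that gene alone, out of 18193 genes with such a probe set. Xrcc2 had none in the annotation used, the probe sets of Tdg name its pseudogenes as well, and neither gene is analysed here. Total RNA was hybridised to 1 microarray per sample, with 3 arrays of GFP positive and 3 of GFP negative cells, called biological replicates in the series design. Spot14 is the product of Thrsp, and GFP (green fluorescent protein) is the reporter signal by which the cells are labelled; both groups are mouse neural stem cells. Strain, age, the reporter construct, the way the cells were kept and how they were separated are not given in the sources used here.

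Homologous recombination copies lost sequence from the sister chromatid and is available mainly once DNA has been replicated. Fanconi proteins deal with strands that are covalently crosslinked, and the kinases Atr and Chek1 hold back the cell cycle while replication forks are stalled. End joining ligates broken ends without a template and works in cells that do not divide as well as in those that do. Base excision removes single damaged bases, and mismatch repair removes errors of the polymerase. Transcripts of many recombination and fork protection genes are known to be most abundant around S phase.

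A probe set is a group of short probes read together as 1 value, and some probe sets can match several transcripts. The value is a log2 signal from which a background had been subtracted. Testing required log2 4 or more on at least 3 of the 6 arrays, which 38 of the 44 genes and 10531 genes in all reached. Each difference is the GFP positive mean less the GFP negative mean in log2 units, so that a negative value means less signal in GFP positive cells. The threshold was an adjusted p of 0.05 from limma over all 10531 genes.

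Of the 38 tested genes 6 fell in GFP positive cells and 0 rose. These were Rad51ap1, Brca1 and Exo1 of homologous recombination, Clspn and Timeless of the checkpoint, and Ung of base excision. Exo1 reached the filter on GFP negative arrays alone, and without it 5 of 37 fell. Among all genes tested, limma called 2.11% lower and 2.35% higher. The listed genes were chosen with earlier results of these data known, so setting them beside shares of all genes is a description and not a test. Before adjustment, p was under 0.05 in limma for 14 of the 38 with less signal and 0 with more, against 8.28% lower and 9.92% higher among all genes tested. The 3 GFP positive arrays lay below all 3 GFP negative arrays for 15 of the 38, which was so for 11.5% of all genes tested, and above them for 0, against 13.8%. Differences were negative for 31 of the 38, and for 49.5% of all genes tested. The median difference of the 38 was −0.38, and that of all genes tested was 0.00. Over all 44 genes with a probe set, dim ones included, the median was also −0.38.

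These counts depended on single arrays. The 6 lower genes became 0 without GFP positive replicate 1, 0 without GFP positive replicate 3, 3 without GFP positive replicate 2 and 2 without GFP negative replicate 2. Calls among all genes tested moved as well, from 222 lower and 248 higher. In the same order of fits they became 0 and 2, 0 and 1, 66 and 40, and 36 and 70. Leaving out GFP negative replicate 1 gave 8 of the 38, against 196 lower and 158 higher among all genes. Leaving out replicate 3 of that group also gave 8, against 443 and 801. At an unadjusted p under 0.05, limma counted 10 to 18 of the 38 lower in these fits, as the plot of counts by array left out shows. The share of all genes at that level was not counted fit by fit. An exact permutation test of any single gene could not go below p = 0.1 with 3 arrays against 3. Nothing in the labels says whether the replicates came from separate animals or cultures, so the p-values measure only the spread between these samples.

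**Figure D1:**
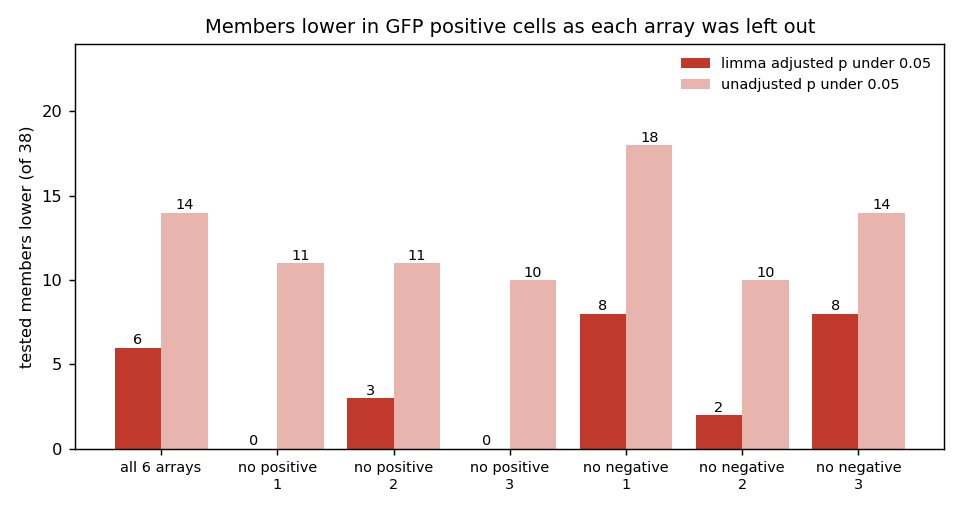
Number of the 38 tested repair and checkpoint genes lower in GFP positive cells (vertical axis) with all 6 arrays and with each array left out in turn; dark red bars count limma adjusted p under 0.05 and light red bars unadjusted p under 0.05. The dark bars run from 0 to 8 and the light bars from 10 to 18. The share of all genes at the unadjusted level was not counted for the fits with an array left out.

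On the second principal component of the tested genes GFP negative replicate 3 lay at 36.8, far from the −31.9 and −33.8 of its own group, while GFP positive arrays lay between −2.32 and 21.8. The excess of 3′ over 5′ signal of the Gapdh and beta-actin control probe sets, a sign of RNA quality, was 2.49 on GFP negative replicate 2 and 1.51 to 1.82 on the other arrays. With that excess as a covariate, a fit added after the data were seen, 0 of the 38 passed and 9 were lower at an unadjusted p under 0.05. The share of all genes at that unadjusted level was not counted in it. The differences in that fit were −1.85 for Rad51ap1, −1.46 for Brca1, −1.84 for Exo1, −1.995 for Clspn, −1.33 for Timeless and −1.21 for Ung, against −1.90, −1.54, −2.08, −2.26, −1.58 and −1.48 without the covariate. Thrsp, which checks the labels, ranged from 14.12 to 14.32 among the GFP positive arrays, and from 13.41 to 13.71 among the others (difference 0.65, limma adjusted p = 0.0893). Of 15 stem cell and astrocyte markers 15 were tested, 4 were higher and 0 lower. Of the other marker lists, 5 of 11 intermediate progenitor and neuroblast genes were tested (1 lower), 4 of 9 oligodendrocyte lineage genes (0 past the threshold), 4 of 5 ependymal genes (0), 1 of 9 microglia genes (0) and 2 of 9 endothelial and mural genes (1 lower). In the neuroblast list Elavl4 fell (5.90 against 7.48, limma adjusted p = 0.0474), Neurod1 read 4.82 against 5.88 (0.0796), Prox1, Sox11 and Dlx2 had overlapping groups, and Dcx lay near background at 2.43 and 2.42. All 4 tested oligodendrocyte lineage genes had negative differences, 2 of them at an unadjusted p under 0.05 by limma. Cspg4 differed by −1.31 (limma adjusted p = 0.134) and Pdgfra by −0.54 (0.217), while Olig1 and Olig2 differed by −0.11 and −0.20. The microglia markers P2ry12 and Tmem119 had group means of 2.13 to 2.20. The part of these cell types in the repair result was not tested.

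Genes of DNA replication and mitosis were measured on the same arrays. Of 19 tested S phase replication genes 7 were lower and 0 higher, with a median of −1.17. Of 19 tested mitosis genes 18 were lower and 0 higher, with a median of −1.76. Among these 18, Plk1 (3.11 against 4.99 on average) reached the filter on GFP negative arrays alone, so a difference had to follow there. Relative to each gene's mean, mitosis genes had a median of −0.90, −0.60 and −1.30 in the 3 GFP positive samples, in replicate order, against 0.58, 0.91 and 1.29 in the GFP negative samples. The S phase median was −0.39, −0.40 and −0.74 against 0.33, 0.55 and 0.87. In bulk samples such as these, fewer cells of a type and less RNA per cell cannot be told apart, and the part of dividing cells in the repair result was not tested.

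Promoter sequence is shown for 5 genes because members of 3 pathways were lower together and a transcription factor family of S phase entry, E2F, is known to act on many of them. Sequences are from RefSeq, build GRCm38.p6, and run 5′ to 3′ on the gene's strand from 100 bases before the start used in the promoter table to 30 bases after it. That start is the outermost annotated start of the gene for Brca1 and Msh6, and lies inside the gene by 23 bases for Clspn, 34 for Rad51ap1 and 266 for Fancg. Capitals mark an E2F word, which is the word TTCCCGC, its variant TTGGCGC, the related form TTGCCGC or the further form TTCGCGC, on either strand. Brca1 (chr11:101551926-101552055, minus strand), Rad51ap1 (chr6:126939558-126939687, minus strand) and Clspn (chr4:126556880-126557009, plus strand) fell in GFP positive cells. They are shown because they fell and hold an E2F word, so its presence there was fixed by the choice. Timeless and Ung fell too, held no such word in the stretch searched and are not shown. Msh6 (chr17:87974950-87975079, plus strand) and Fancg (chr4:43010272-43010401, minus strand) hold such a word too, and their groups overlapped.
Brca1: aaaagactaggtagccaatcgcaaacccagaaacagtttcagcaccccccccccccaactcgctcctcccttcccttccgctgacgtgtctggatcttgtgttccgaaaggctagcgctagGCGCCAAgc
Rad51ap1: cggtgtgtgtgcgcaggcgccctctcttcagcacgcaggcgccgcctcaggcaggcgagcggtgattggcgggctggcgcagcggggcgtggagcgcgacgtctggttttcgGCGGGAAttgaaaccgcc
Clspn: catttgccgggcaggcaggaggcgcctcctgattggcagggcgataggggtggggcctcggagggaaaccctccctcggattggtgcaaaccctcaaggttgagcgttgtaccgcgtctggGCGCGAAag
Msh6: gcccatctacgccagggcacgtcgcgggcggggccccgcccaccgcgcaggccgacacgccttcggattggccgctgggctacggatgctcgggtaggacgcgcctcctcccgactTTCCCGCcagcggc
Fancg: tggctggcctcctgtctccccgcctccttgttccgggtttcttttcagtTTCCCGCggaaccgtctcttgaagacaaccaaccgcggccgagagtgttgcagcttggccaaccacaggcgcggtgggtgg

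Counted from the table's start as base 1, the word began at base 22 in Brca1 and in Clspn and at base 13 in Rad51ap1. It began at base 17 in Msh6 and at base −51 in Fancg, where it lies inside the annotated gene. A promoter, from 250 bases before the start to 50 after it, was at hand for 38 of the 46 genes, and for 27 of them the table's start was not the outermost one. An E2F word on either strand stood in 19 of these 38, against 13.7% of 17492 protein-coding genes; a gene with several starts counted once. By pathway, it stood in 7 of 12 promoters of homologous recombination, 4 of 7 Fanconi, 4 of 7 checkpoint, 2 of 2 mismatch repair, 2 of 4 end joining and 0 of 6 base excision genes. Of tested genes whose GFP positive arrays all lay lower, 6 of 12 had it, and so did 10 of 20 tested genes whose groups overlapped. Among the latter, the start used lay far inside the gene for Fancc (65547 bases), Xrcc6 (28536) and Trp53bp1 (24947). Exo1, Rad54b and Tipin, all lower, had no promoter at hand. Whether the word goes with the array result was not tested. Of the 6 genes that fell, 5 had a promoter and 3 of these held the word. Timeless and Ung did not. The start used lies inside the gene by 6003 bases for Timeless and 69 for Ung. For Timeless the bases around its outermost start were therefore not searched. Ung holds the GC box GGGCGG, which stood in 60.5% of the genes' promoters against 49.2% of all. The CCAAT box CCAAT stood in 55.3% against 42.3%. The word TTTGAA of the cell cycle homology region, both strands again, stood in 5.26% (Bard1 and Eme1) against 18.5%. A matching word is a description of the sequence and not a binding site, and base composition was not matched between these sets.

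Homologous recombination held 3 of the 6 genes that fell, or 2 of 5 without Exo1. Of its 17 genes 11 were tested, all 11 differences were negative, and their median was −0.65 (1.56-fold lower); over all 16 with a probe set the median was −0.46. Rad51ap1, an accessory protein that stimulates strand exchange, read 5.69, 5.24 and 5.39 in the GFP positive samples, in replicate order here and below, against 7.10, 7.39 and 7.55 in the GFP negative samples. Every GFP positive array lay more than 1 unit below every GFP negative array. Group means of 5.44 ± 0.23 and 7.34 ± 0.23 (SD, n = 3) put the GFP positive signal 3.74-fold lower (−1.90, SE 0.21, limma adjusted p = 0.00919). Another of its probe sets fell by 2.27, from 5.20 to 2.93, and passed in a fit of all probe sets (limma adjusted p = 0.0428). That probe set reached the filter on GFP negative arrays alone, so a difference had to follow there. The remaining probe sets of Rad51ap1, under the filter, had overlapping groups, with means of 2.79 against 3.15 and of 2.58 against 2.56. Over the 6 fits with 1 array left out Rad51ap1 passed in 4 (largest limma adjusted p 0.0629) and failed without GFP positive replicate 1 or 3.

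Brca1, the ubiquitin ligase subunit that helps resect breaks, read 5.71, 6.46 and 5.81 in GFP positive and 7.22, 7.51 and 7.88 in GFP negative arrays. The groups did not overlap, and GFP positive replicate 2 was the nearest to the other group. The signal was 2.91-fold lower (−1.54, SE 0.27, limma adjusted p = 0.0274). Its next probe set, under the filter, read 3.43 and 4.40 on average and did not overlap either. Brca1 lost its call in 3 of the 6 left-out fits, those lacking GFP positive replicate 1, GFP positive replicate 3 and GFP negative replicate 2 (largest limma adjusted p 0.127). Brca2, which acts on the resected single strands, read 6.70, 6.72 and 6.21 against 6.60, 7.38 and 7.58. Its groups overlapped through GFP negative replicate 1, and the difference was −0.65 (95% limma interval −1.34 to 0.05, adjusted p = 0.315). The Brca1 partner Bard1 lay near background at 2.14 in GFP positive and 2.15 in GFP negative cells. Palb2, the bridge between Brca1 and Brca2, lay at 2.56 and 2.67, and the helicase Brip1 at 2.46 and 2.76, so none of these could be compared.

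Exo1, the nuclease that lengthens resected ends and also serves mismatch repair, read 2.73, 2.49 and 2.42 in GFP positive arrays and 4.21, 4.98 and 4.70 in GFP negative arrays. It reached the filter through the GFP negative arrays alone, so that a difference had to follow, and the size of its fold rests on the background subtraction. The fitted difference was −2.08 (SE 0.24, limma adjusted p = 0.00999). Its other probe sets lay near background, with group means of 2.36 to 2.67. Exo1 passed in 4 of the 6 fits with 1 array left out and failed without GFP positive replicate 1 or 3 (limma adjusted p at most 0.0629).

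The recombination helicases and translocases were lower without passing. Rad54b, a DNA translocase, read 4.28, 5.14 and 4.78 against 6.07, 6.84 and 5.80, without overlap. It was 2.83-fold lower and just missed the threshold (−1.50, SE 0.33, limma adjusted p = 0.0520). It passed without GFP negative replicate 3 (limma adjusted p = 0.0244). Blm, the Bloom syndrome helicase, read 4.25, 4.13 and 4.15 against 4.46, 5.77 and 6.25. The groups did not overlap, but GFP negative replicate 1 lay close to the GFP positive arrays, and the difference of −1.32 (SE 0.43) did not pass (limma adjusted p = 0.150). Without that array it was −1.83 and passed (limma adjusted p = 0.0200). Rad54l, the main Rad54 translocase, differed by −0.34 (limma adjusted p = 0.421) at the probe set used here. Another Rad54l probe set differed by −1.43, with 4.25 against 5.67 on average, and did not pass either (limma adjusted p = 0.0892 among all probe sets). At both probe sets the groups did not overlap, although the differences were over 1 unit apart; at a further one above the filter the groups overlapped (−0.27).

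The break sensor and the later nucleases did not pass. Nbn, of the complex that first binds a broken end, read 9.45, 9.27 and 8.74 against 9.28, 9.20 and 9.83 (−0.28, 95% limma interval −0.90 to 0.34). Rad50, of the same complex, read 6.64, 7.04 and 6.70 against 6.12, 7.18 and 7.36 (−0.10, −0.88 to 0.69), and both genes had overlapping groups. Xrcc3, which acts in strand exchange, differed by −0.40 (limma adjusted p = 0.552). The nuclease subunit Mus81 differed by −0.48 (limma adjusted p = 0.590), and GFP negative replicate 3 was its highest array at 9.17, with the others between 7.63 and 8.20. Its partner Eme1 was under the filter, reading 2.44, 2.53 and 2.52 against 2.81, 3.54 and 4.12. Rad51c, which acts with Xrcc3, was under it as well, reading 3.03, 3.24 and 3.25 against 3.34, 3.86 and 3.66. Both had groups that did not overlap, and neither was tested.

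**Figure D2:**
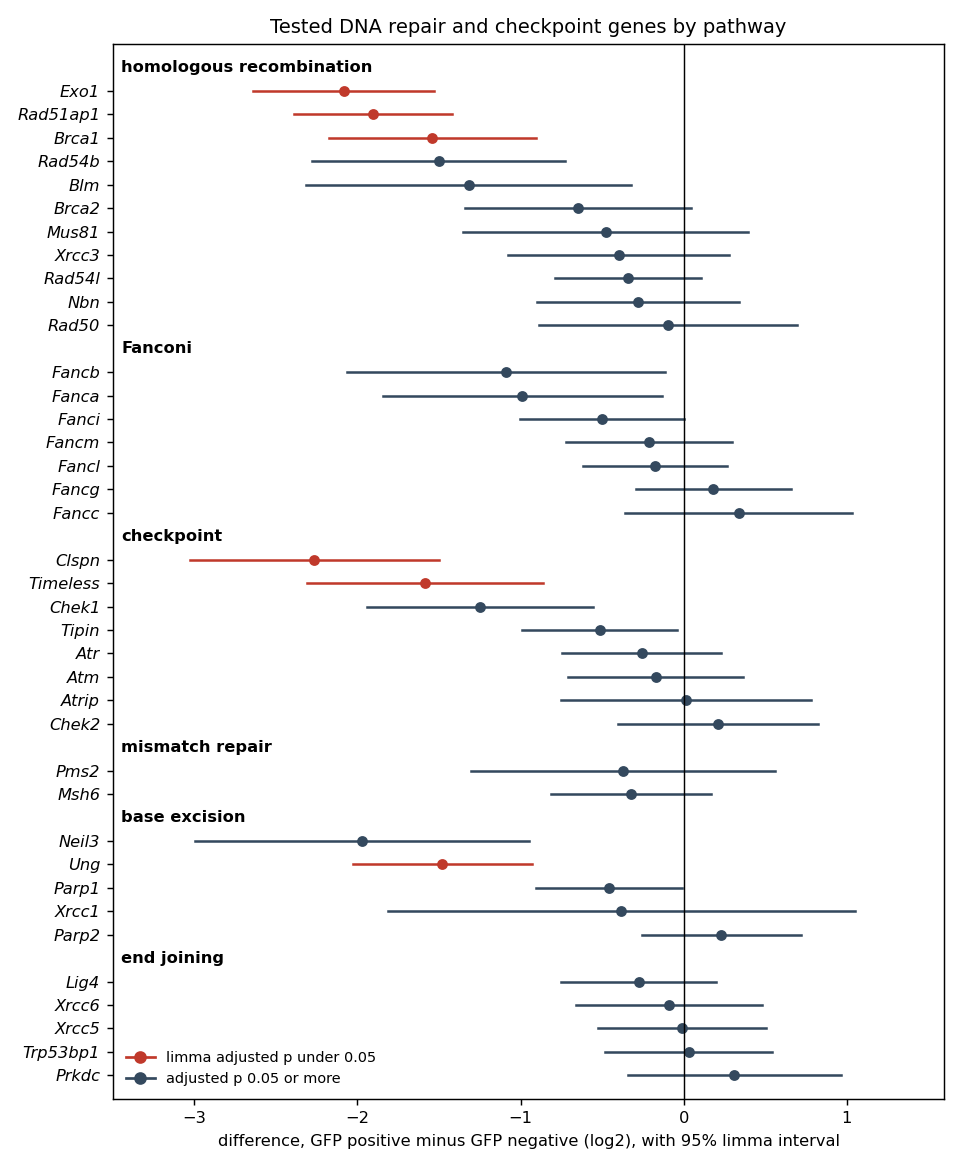
Difference between GFP positive and GFP negative cells (horizontal axis, log2) for the 38 tested genes by pathway, with 95% limma intervals from 3 arrays per group; red marks an adjusted p under 0.05. The red points lie between −2.26 and −1.48, and the end joining genes lie between −0.27 and 0.31.

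All 8 checkpoint genes were tested, 2 fell (Clspn and Timeless), and the median was −0.39 (1.31-fold lower). Clspn, or claspin, the adaptor through which Atr activates Chek1, read 5.21, 5.08 and 4.66 against 6.55, 7.51 and 7.68. The groups lay more than 1 unit apart and the signal was 4.80-fold lower, the largest difference of the 38 genes (−2.26, SE 0.33, limma adjusted p = 0.0159). Timeless, a fork protection protein, read 4.87, 5.03 and 5.04 against 5.87, 6.76 and 7.07, again without overlap. Its signal was 3.00-fold lower (−1.58, SE 0.31, limma adjusted p = 0.0357). Another of its probe sets, under the filter, read 2.50 and 4.04 on average. In the fit of all probe sets Timeless missed the threshold (limma adjusted p = 0.0543). Clspn and Timeless each passed in 2 of the 6 fits with 1 array left out, those lacking GFP negative replicate 1 or 3. The limma adjusted p was at most 0.0866 for Clspn and 0.149 for Timeless.

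Tipin, the partner of Timeless, read 8.13, 8.01 and 7.81 against 8.33, 8.36 and 8.80. Its groups did not overlap, and its difference of −0.51 (SE 0.20) did not pass (limma adjusted p = 0.235). Chek1, the effector kinase of the replication checkpoint, read 7.01, 7.36 and 7.47 against 8.03, 9.11 and 8.45. It was 2.38-fold lower without overlap and did not pass (−1.25, SE 0.30, limma adjusted p = 0.0633). Its other probe sets above the filter differed by −0.89 and −1.15, the latter with a limma adjusted p of 0.0527 among all probe sets. With probe sets of suffixed names left out (those that can match several transcripts), Chek1 was read from that one and passed (limma adjusted p = 0.0349).

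The upstream kinases were close between the groups. Atr, the kinase of stalled forks, read 7.78, 8.35 and 8.09 against 8.16, 8.48 and 8.35 (−0.26, 95% limma interval −0.75 to 0.23). Its partner Atrip read 5.15, 4.50 and 4.49 against 4.44, 4.32 and 5.35 (0.02, −0.75 to 0.78). Atm, the kinase of double strand breaks, read 9.84, 9.66 and 9.58 against 9.68, 10.30 and 9.62 (−0.17, −0.71 to 0.37). Chek2, the kinase that Atm activates, read 6.76, 6.75 and 7.30 against 7.12, 6.71 and 6.35 (0.21, −0.40 to 0.83). In each of these 4 the groups overlapped, and the intervals still allow differences of 0.71 to 0.83 in size.

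Fanconi genes held none that passed among 7 tested, with a median of −0.21. Over all 8 with a probe set the median was −0.36. Before adjustment, limma's p was under 0.05 for 2 tested genes with less signal and 0 with more. Fanca and Fancb belong to the core complex, a ubiquitin ligase. Fanca read 3.99, 4.35 and 3.70 against 4.38, 4.86 and 5.77, without overlap by a narrow margin (−0.99, SE 0.37, limma adjusted p = 0.204). Fancb read 4.54, 4.29 and 3.85 against 4.42, 5.43 and 6.09, and GFP negative replicate 1 overlapped with the other group (−1.09, limma adjusted p = 0.221). For both genes GFP negative replicate 3 was the highest array, and without it they differed by −0.61 and −0.70. Fanci, 1 of the 2 proteins that the core complex ubiquitinates, read 10.15, 10.22 and 9.86 against 10.27, 10.61 and 10.85 (−0.50, limma adjusted p = 0.277). Its counterpart Fancd2 was under the filter, at 2.62, 3.34 and 3.42 against 3.48, 4.41 and 5.16, without overlap and not tested.

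Other core complex members went either way and their groups overlapped. Fancg differed by 0.18 (95% limma interval −0.29 to 0.66) and Fancc by 0.34 (−0.36 to 1.03). Fancl, the ligase subunit, read 7.53, 7.46 and 7.61 against 7.60, 7.54 and 7.99 (−0.18), and Fancm, the translocase that anchors the complex, differed by −0.21. The Fanconi median moved from −0.21 to −0.04 without GFP negative replicate 3.

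Base excision genes ranged from −1.97 for Neil3 to 0.23 for Parp2, and Ung fell. Of 5 tested genes 1 fell, 3 were lower at an unadjusted p under 0.05 by limma, and the median was −0.46. Ung, the glycosylase that removes uracil from DNA, read 7.66, 7.87 and 7.68 against 8.79, 9.58 and 9.29. The GFP positive arrays lay within 0.3 of each other and below every GFP negative array. Its signal was 2.79-fold lower (−1.48, SE 0.23, limma adjusted p = 0.0192). Ung passed in 2 of the 6 fits with 1 array left out, those lacking GFP negative replicate 1 or 3 (largest limma adjusted p 0.103). Neil3, a glycosylase for oxidised bases, read 4.18, 2.74 and 3.61 against 5.17, 5.08 and 6.21, without overlap. Its mean in GFP positive cells was near background, and its difference of −1.97 (SE 0.44) just missed the threshold (limma adjusted p = 0.0522).

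Parp1, which senses strand breaks and attaches ADP-ribose chains, read 11.82, 11.95 and 11.88 against 12.11, 12.61 and 12.31, without overlap. The difference was −0.46, or 1.37-fold, and did not pass (limma adjusted p = 0.262). It was −0.50 and −0.22 at 2 other probe sets of Parp1 and 0.11 at a further one. Parp2, its relative, read 9.05, 8.74 and 8.90 against 8.43, 8.57 and 8.98 (0.23, 95% limma interval −0.26 to 0.72). Xrcc1, the scaffold of single strand break repair, read 7.18, 6.83 and 7.05 against 5.97, 7.52 and 8.72. The GFP negative arrays lay on both sides of the GFP positive ones, and the interval of −1.81 to 1.05 around −0.38 was the widest of the 38 genes. The base excision median was −1.10 without GFP negative replicate 1, where Xrcc1 was the middle gene.

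Mismatch repair and end joining genes did not pass. Msh6, which recognises mismatches, read 10.94, 11.01 and 11.08 against 11.31, 11.66 and 11.01 (−0.32, 95% limma interval −0.81 to 0.17). Its groups overlapped through GFP negative replicate 3. Pms2, which acts after mismatch recognition, read 5.91, 5.53 and 4.99 against 5.35, 5.52 and 6.69, with overlap (−0.37, −1.31 to 0.56). All 5 end joining genes were tested, 0 passed, 0 were lower or higher at an unadjusted p under 0.05 by limma, and the groups of all 5 overlapped, with a median of −0.01. Xrcc5 and Xrcc6, the Ku subunits that cap broken ends, differed by −0.01 (−0.52 to 0.50) and −0.09 (−0.66 to 0.48). Xrcc5 read 8.48, 8.40 and 8.29 against 8.16, 8.24 and 8.80. Prkdc, the kinase that Ku recruits, read 8.89, 8.88 and 8.73 against 7.92, 8.68 and 8.96 (0.31, −0.34 to 0.97). Lig4, the ligase of the pathway, differed by −0.27 (−0.75 to 0.20). Trp53bp1, which protects ends from resection, differed by 0.03 (−0.48 to 0.55), with 11.59, 11.73 and 12.10 against 11.67, 12.06 and 11.59. These intervals allow a difference of about 1 unit for Prkdc and of less than 0.8 for the others. No test was made of one pathway against another.

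**Figure D3:**
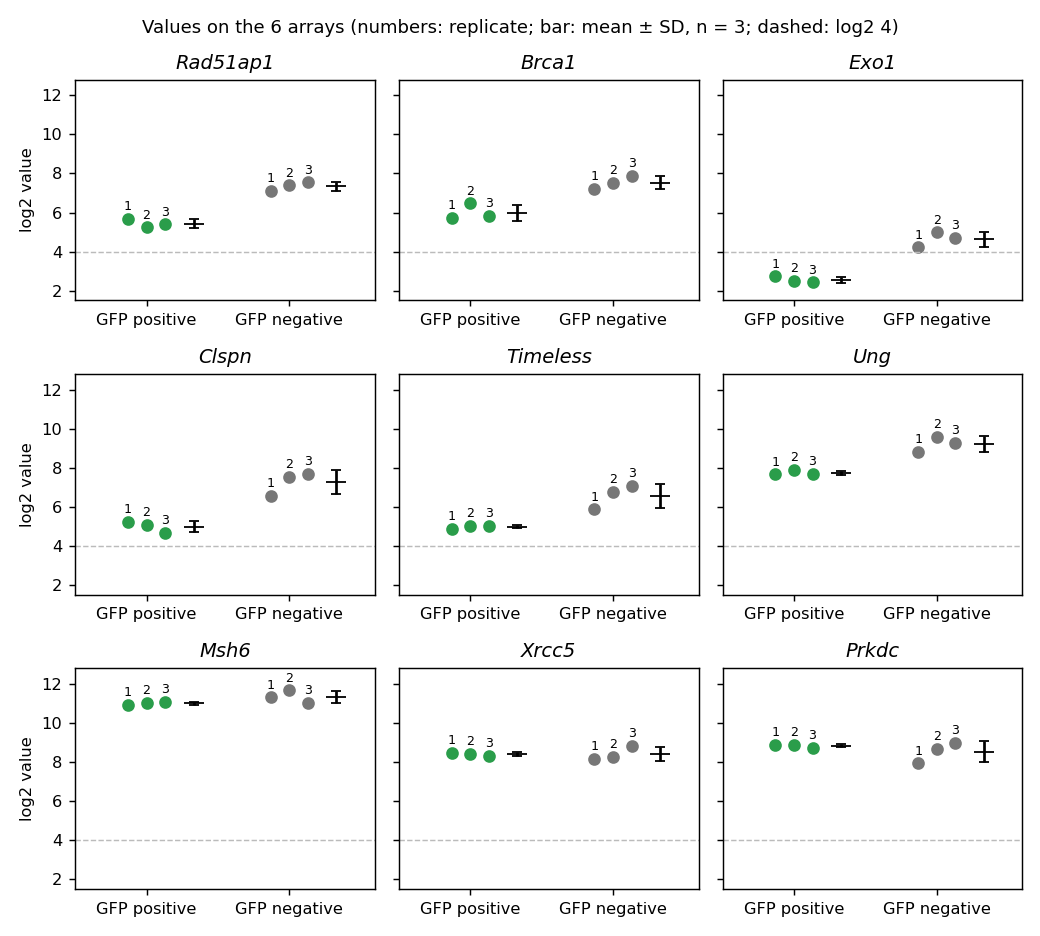
Log2 values of 9 genes on the 6 arrays (vertical axis), GFP positive in green and GFP negative in grey, with replicate numbers and the mean ± SD of 3 arrays; the dashed line is the filter at log2 4. The first 6 genes fell and their groups do not overlap, while those of Msh6, Xrcc5 and Prkdc do.

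The level of each pathway on single arrays did not separate the groups evenly. Relative to each gene's mean over the 6 arrays, homologous recombination genes had a median of −0.43, −0.30 and −0.66 in the GFP positive samples. In the GFP negative samples it was −0.02, 0.52 and 0.81. The checkpoint median was −0.27, −0.22 and −0.32 against 0.09, 0.40 and 0.55, and that of base excision −0.29, −0.38 and −0.23 against −0.01, 0.50 and 0.81. GFP negative replicate 1 was thus the GFP negative array nearest to the GFP positive ones and replicate 3 the farthest. The same array order within the GFP negative group held for the S phase and mitosis medians given above. It also held for the Fanconi, mismatch repair and end joining medians. The median of all genes tested had this order too, at −0.08, −0.01 and 0.11. The end joining median was 0.00, 0.09 and −0.10 against −0.24, 0.00 and 0.28, so that its groups overlapped.

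**Figure D4:**
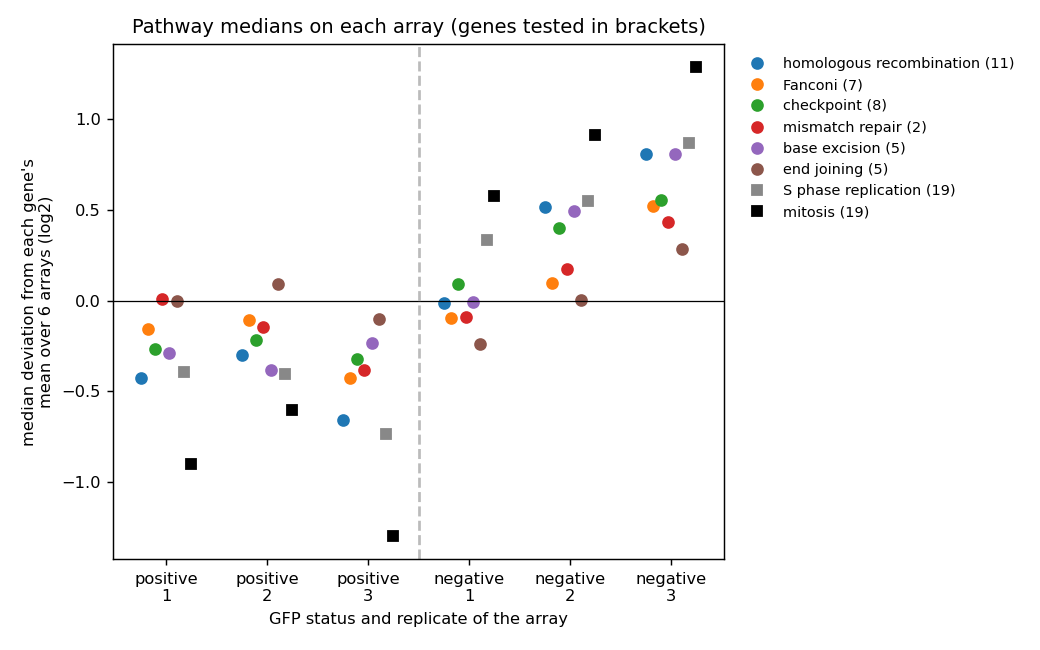
Median deviation of the tested genes of each pathway from their own means (vertical axis, log2) on each array, with S phase and mitosis genes as squares. GFP negative replicate 1 lies lowest of its group for homologous recombination (−0.02) and mitosis (0.58), and replicate 3 highest (0.81 and 1.29). The same order held for every list plotted.

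The same pathways hold 80 other genes on a list chosen for their roles, with earlier results of these data known. A probe set was at hand for 71, and 64 were tested. Of the 64 tested, 4 fell and 0 rose, against 2.11% and 2.35% of all genes tested, and their median was −0.16. The genes that fell were Dna2, a nuclease of end resection and of Okazaki fragments, Ube2t, the ubiquitin-conjugating enzyme of the Fanconi core complex, Cdc25a, a phosphatase that Chek1 restrains, and Lig1, the ligase of replication and long-patch base excision. Lig1 read 6.48, 6.57 and 5.68 in GFP positive and 7.84, 8.23 and 8.58 in GFP negative arrays, without overlap (−1.97, SE 0.30, limma adjusted p = 0.0185). Dna2 was 2.79-fold lower (5.50 ± 0.22 against 6.98 ± 0.30, SD, n = 3; limma adjusted p = 0.0167). Cdc25a was 2.51-fold lower (limma adjusted p = 0.0188) and Ube2t 1.90-fold lower (limma adjusted p = 0.0341).

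By pathway, 1 of 17 other recombination genes, 1 of 8 other Fanconi genes, 1 of 13 other checkpoint genes and 1 of 16 other base excision genes fell. None of 3 other mismatch repair genes and none of 7 other end joining genes passed; before adjustment, limma's p was under 0.05 for 1 higher mismatch repair gene and 1 lower end joining gene. In mismatch repair, Mlh3, known from meiosis, differed most, at 5.27, 5.40 and 4.97 against 4.54, 3.66 and 4.34 (1.03, limma adjusted p = 0.0819), and Msh3 differed by −0.25. In end joining, Mad2l2, a factor that limits resection, differed by −0.83 (limma adjusted p = 0.172) and the polymerase Poll by 0.70 (0.607).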

How the data were processed

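The deposited log2 values of 6 arrays came from GCRMA, according to the submitters' processing notes; version and genome build are not given in the sources used here. That method removes a sequence-based background estimate, equalises arrays and summarises probes, so values under log2 4 have uncertain folds and a shift of all genes would be hidden. Of 45101 probe sets 34945 named exactly 1 gene in the platform annotation; each gene took the probe set whose mean over 6 arrays was highest. The test was lmFit and eBayes of limma 3.58.1 (R 4.3.3), adjusted by Benjamini-Hochberg over 10531 genes. Tested on simulated data for this comparison, the fit recovered 28% of log2 changes of 1 and 68% of changes of 2, and none of 0.5, with 1 false call. The members and lists were chosen with earlier results of these data known. All 46 genes are accounted for; values per array are given for those past the threshold and, per pathway, those with the largest and smallest difference and the highest signal. Of the other pathway genes those past the threshold are named, or the largest difference each way where a list has none. Precision is limited by having 3 arrays in each group. Promoters were read from a RefSeq table of build GRCm38.p6, around the start that table uses. Alternatives varied the filter, normalization, probe set, variance model, array weights, replicate block and arrays left out; the 3′ to 5′ covariate was added after the data were seen.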

Additional observations from a re-analysis of the deposited data

How the results depend on the processing

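The 6 lower genes were 2 with no filter on dim genes (Exo1 and Rad51ap1), 10 with array weights, which gave GFP negative replicate 3 a weight of 0.152, 0 with the 3′ to 5′ covariate, and 0 to 8 when each array was left out; with 0, limma counted 9 to 11 lower at an unadjusted p under 0.05. Quantile normalization and the trend and robust settings gave 6, a common median 7, the mean of all probe sets 8, no suffixed probe sets 6 (Chek1 passed, and Ung was not tested) and a filter at log2 6, under which 26 genes were tested, 4. None was higher in any of these fits. With the replicate number as a block 0 were lower, 11 at an unadjusted p under 0.05. The share of all genes at that unadjusted level was counted in the main fit alone, so these unadjusted counts have no share beside them. Over all genes tested, 222 lower and 248 higher calls became 101 and 193 with no filter, 603 and 1051 with array weights, 8 and 19 with the block, 0 and 9 with the covariate, and 0 to 443 and 1 to 801 over the left-out fits. The labels do not say whether equal replicate numbers pair the samples. Deviations of same-numbered arrays from their group means correlated at −0.25, 0.05 and −0.50, and other pairs reached 0.44. With 3 arrays per group these correlations constrain one another, so they cannot settle the pairing. The homologous recombination median was −1.41 without suffixed probe sets, and the base excision median −1.10 to −0.32 over the left-out fits. The Fanconi median was 0.00 with the filter at log2 6, and the end joining median ran from −0.13 to 0.14. Of 590 fits of single genes under an alternative, 538 kept their value within the replicate spread or their call, 35 lost a call, 12 gained one and 5 moved. Most of these fits were of genes without a call, and only the 6 called genes could lose one. Rad51ap1 kept its call in 12 of 16 alternatives, Exo1 in 11 of 15 and Brca1 in 10 of 16. Clspn kept it in 9 of 16, and Timeless and Ung in 8 of 15 each. No called gene changed sign. Where gains or losses have no array named, the cause was not tested. Genes near log2 4 or below, such as Exo1, Neil3, Fancd2 and Eme1, are limited by signal over background.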

Other observations

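Repair pathways outside the 6 groups held no gene past the threshold. Of 16 tested nucleotide excision genes, which remove bulky lesions, 12 differences were negative and 4 positive, with a median of −0.22; limma counted 0 lower and 1 higher at an unadjusted p under 0.05. That gene was Xpa, the damage verification factor, at 8.75 in GFP positive against 8.27 in GFP negative cells (0.49, limma adjusted p = 0.257), and Ercc5, a nuclease of the pathway, differed by −0.42 (limma adjusted p = 0.311). Of 11 tested translesion and damage tolerance genes 0 passed and 0 did at an unadjusted p under 0.05 by limma (median −0.10). Their extremes were Rev3l, the catalytic subunit of polymerase zeta, at −0.38 and the helicase-like Hltf at 0.28. The 3 direct reversal genes differed by −0.46 (Alkbh2), −0.14 (Mgmt) and −0.04 (Alkbh3), with 0 past an unadjusted p under 0.05 by limma.

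Genes listed around p53, regulators as well as damage response genes, did not pass either (18 tested, median 0.02). Of these, 1 was lower and 1 higher at an unadjusted p under 0.05 by limma. Gadd45a, a damage-inducible gene, read 12.73 in GFP positive and 11.88 in GFP negative cells on average (0.85, limma adjusted p = 0.113). Gadd45b differed most in this list, by 1.00, with overlapping groups (limma adjusted p = 0.426). Ppm1d, a phosphatase that switches checkpoint kinases off, differed by −0.52 (limma adjusted p = 0.274). Cdkn1a differed by −0.17 and Mdm2 by 0.18.

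Among the 64 other genes of the 6 pathways, 12 had GFP positive arrays all lower and 4 all higher, against 11.5% and 13.8% of all genes tested, and 4 of the 12 passed. H2afx, the histone variant phosphorylated at breaks, read 7.08, 7.45 and 6.40 in GFP positive and 8.22, 8.69 and 9.82 in GFP negative arrays (−1.93, limma adjusted p = 0.0589). Etaa1, an activator of Atr, lay on the other side, at 6.55, 6.40 and 6.60 against 5.46, 5.55 and 6.11 (0.81, limma adjusted p = 0.0951). H2afx and Etaa1 were picked with these values known.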
